A study of Mus musculus with 4 samples.

Results

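Integrins and the genes that work with them were followed through 4 microarrays of 4T1Ch9 tumors. The set was chosen by name, as 35 mouse genes for integrin chains, their cell-surface partners and the cytoplasmic proteins that couple integrins to actin. A gene was counted as measured where a probe set carries its symbol alone, and its brightest probe set by mean over the 4 arrays was used. This gave 32 genes of the 17097 measured in all, and Itga11, Itgb8 and Ptk2 were not analysed here. The 4T1Ch9 line is a mouse TNBC (triple-negative breast cancer) line with a cherry tag, of Balb/c background, so each tumor derives from 1 cell line. Cells were placed in the mammary fat pad of wild-type female Balb/c mice, young adults with their own immune system, and tumors grew for 10 days. Mice were then given trametinib, which blocks the kinases MEK1 and MEK2 (MEKi, 1 mg/kg), or the carrier alone (vehicle), by mouth each day for 7 days. Total RNA of whole tumors was measured on 4 arrays of the type Affymetrix MG-430PM, of which each group has 2. It is not stated in the sources used here if 2 arrays with 1 label stand for different mice or for pooled tumors, and p-values therefore cover only the spread of these arrays, which may be technical.

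Integrins are receptors made of an α and a β chain. They bind matrix proteins such as laminin, collagen and fibronectin, or counter-receptors on other cells, and connect to the actin cytoskeleton through talin, kindlins and vinculin. Carcinoma cells anchor themselves mainly through laminin and αv receptors, whereas leukocytes carry their own α chains paired with β2 or β7, which act in rolling, firm adhesion and passage through vessel walls. ICAM-1, VCAM-1 and the selectins are the partners that vessel walls offer to leukocytes.

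Values are log2 expression made by RMA, and a value describes 1 probe set across arrays, not 1 gene against another. Array medians ran from 4.98 to 5.14 and 25th percentiles from 3.85 to 3.88, and a reading near the 25th percentile is called close to the floor. Of the 32 genes, 28 read above the array median on all arrays. Itga2, Itga5, Itgb6 and Sele read at or below it on all arrays. Their orders are close to the floor and are not described gene by gene, but the counts over the 32 genes include them. The number of arrays limits the precision.

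Over all probe sets the arrays did not sort by their labels. Across the 45037 tested probe sets, which are features and not replicates, Pearson's r came to 0.992 for MEKi 1 with vehicle 2 and 0.978 for MEKi 2 with vehicle 1, but 0.927 within the MEKi label and 0.959 within the vehicle label. Transcriptional outputs of ERK, the kinase below MEK, had medians over 12 genes of 7.61 (MEKi 1) and 10.35 (MEKi 2) against 9.74 (vehicle 1) and 8.36 (vehicle 2), so an array labelled MEKi held the highest median as well as the lowest. Which tumors were treated cannot be settled from these values. No label was changed, each array is named by its label, and the summaries by label are also given with each array left out.

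Every measured T cell, B cell, and lymph node vessel and stroma gene had MEKi 1 and vehicle 2 as its 2 highest arrays (29.5% of all genes). The 12 ERK output genes all had MEKi 2 and vehicle 1 highest (30.0% of all genes). The other marker lists did not share a single pair of highest arrays. All 10 listed T cell genes were measured, with medians of 10.03 (MEKi 1) and 5.67 (MEKi 2) against 6.61 (vehicle 1) and 9.97 (vehicle 2). The 9 of 10 measured B cell genes had medians of 9.70, 4.18, 4.15 and 9.51 in the same order, and in vehicle 1 Blk and Fcer2a lay at or below the 25th percentile. Of 8 listed genes of high endothelial venules and lymph node stroma, the specialised vessels and support cells of lymphoid tissue, 6 were measured, with medians of 8.82, 3.83, 3.84 and 9.16. Glycam1, Madcam1 and Chst4 were at or below the 25th percentile in MEKi 2 and vehicle 1. Summed over each list on the linear scale and taken as log2, the levels ran from 8.92 to 13.74 (MEKi) and from 9.91 to 13.73 (vehicle) for T cell genes and from 8.57 to 14.51 and from 9.23 to 14.08 for B cell genes. The 9 of 10 measured macrophage and monocyte genes were lowest in MEKi 1 (median 9.76) and highest in vehicle 1 (median 11.07), with 10.41 in MEKi 2 and 10.07 in vehicle 2. The tumor epithelial genes (10 of 10 measured) had medians of 8.04 (MEKi 1) and 6.46 (MEKi 2) against 8.49 (vehicle 1) and 8.37 (vehicle 2). Both vehicle arrays were highest in 6 of these 10 genes, and in 5 of the 9 measured fibroblast and myofibroblast genes (10.2% of all genes). The reverse held for neutrophil genes (9 of 10 measured), where both MEKi arrays were highest in 6 of 9 (11.0% of all genes). S100a8, an abundant neutrophil protein gene, read 9.99 (MEKi 1) and 11.10 (MEKi 2) against 6.17 (vehicle 1) and 7.70 (vehicle 2). The part of these cells in the adhesion gene values was not tested. In bulk RNA, fewer cells of a type and less RNA per cell cannot be told apart.

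By label, no adhesion gene passed. The comparison of MEKi with vehicle asks whether the inhibitor altered these genes after 7 days. With limma, 0 of 45037 probe sets were called (0%), where a call meant an adjusted p under 0.1 with an unadjusted p under 0.05 and over 1.5-fold change. The count among the 32 adhesion genes was 0. Without adjustment, p was under 0.05 for 0 adhesion genes, against 1.23% of all genes, and an ordinary linear model without moderation also gave 0 adhesion genes. Over all probe sets those counts were 406 with limma and 1189 without moderation. The median log2 difference of the 32 genes, MEKi minus vehicle, was −0.14, beside 0.01 over all genes. It lay between −0.26 and −0.040 when MEKi 1, MEKi 2 or vehicle 2 was left out and was 0.075 without vehicle 1. In the deposited scaling 23 of the 32 genes were lower by label and 9 higher. With each array centred on 8 ubiquitous reference genes, which moved all genes by 0.02, 23 were again lower and 9 higher. With each array centred on tumor epithelial genes, which moved all genes by 1.12, 31 were higher and 1 lower. The tumor epithelial list itself differed by label, with means of 7.94 (MEKi 1) and 7.18 (MEKi 2) against 8.82 (vehicle 1) and 8.55 (vehicle 2). For 31 of the 32 genes the difference by label was smaller than the wider of the gaps between 2 arrays of 1 label, which was the case for 87.6% of all genes.

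**Figure D1:**
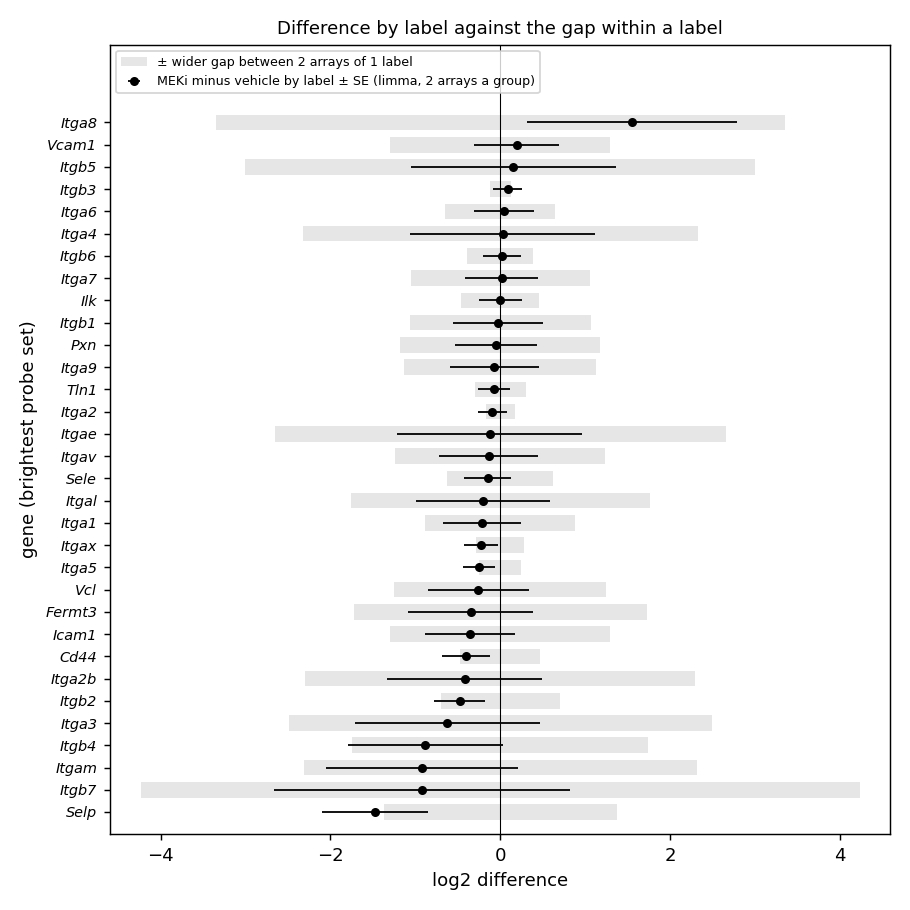
Log2 difference of MEKi minus vehicle by label for 32 adhesion genes (vertical axis), with points and lines for the limma estimate ± SE from 2 arrays a group. Grey bars span plus and minus the wider gap between 2 arrays of 1 label, and Selp at −1.47 is the gene whose estimate lies outside its bar.

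For 0 of the 32 genes were both MEKi-labelled readings above both vehicle-labelled ones (11.0% of all genes) and for 3 genes they were below (10.2%), namely Selp, Itgb2 and Itga5, of which Itga5 was at or below the 25th percentile on 3 arrays. With 3 arrays such a gap is easier to meet. In either direction it was found in 21 of the 32 genes without MEKi 1 (70.2% of all genes), 27 without MEKi 2 (67.8%), 8 without vehicle 1 (49.6%) and 14 without vehicle 2 (54.5%), where the 4 arrays gave 3 (21.1%). The 2 highest readings were those of MEKi 2 and vehicle 1 in 16 genes (30.0% of all genes) and those of MEKi 1 and vehicle 2 in 8 genes (29.5% of all genes). Under the centring on tumor epithelial genes these counts were 9 and 6. The remaining 8 genes had MEKi 1 and vehicle 1 highest (3 genes, 7.28% of all), both vehicle arrays (3 genes) or MEKi 2 and vehicle 2 (2 genes, 12.1%), and 4 of these 8 are the genes near the floor. The lowest and highest reading differed by more than 1 log2 unit in 21 of the 32 genes, against 25.4% of all genes. That share was not matched for brightness. The medians of the 32 genes ran from 8.37 to 8.97 over the arrays, against 6.75 to 6.85 for all genes.

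The 2 pairs of arrays that share a replicate number and no array gave opposite pictures. MEKi 1 minus vehicle 1 and MEKi 2 minus vehicle 2 had opposite signs in 27 of the 32 adhesion genes and in 69.4% of all genes. MEKi 1 exceeded vehicle 1 by over 1 log2 unit in 5 adhesion genes (6.67% of all genes) and lay below it by as much in 9 (8.74%). MEKi 2 exceeded vehicle 2 by over 1 log2 unit in 4 (8.25%) and lay below it in 8 (9.15%). Between MEKi 1 and vehicle 2 the same limit was passed by 0 genes upward (0.287%) and 1 downward (0.831%), the laminin receptor chain Itga3. MEKi 2 lay over 1 log2 unit above vehicle 1 in 2 genes (2.26%) and below it in 4 (4.34%). Between arrays of 1 label the same limit was passed by MEKi 1 above MEKi 2 in 7 genes (9.55%) and below it in 11 (10.3%), and by vehicle 1 above vehicle 2 in 6 (5.81%) and below it in 4 (5.84%).

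**Figure D2:**
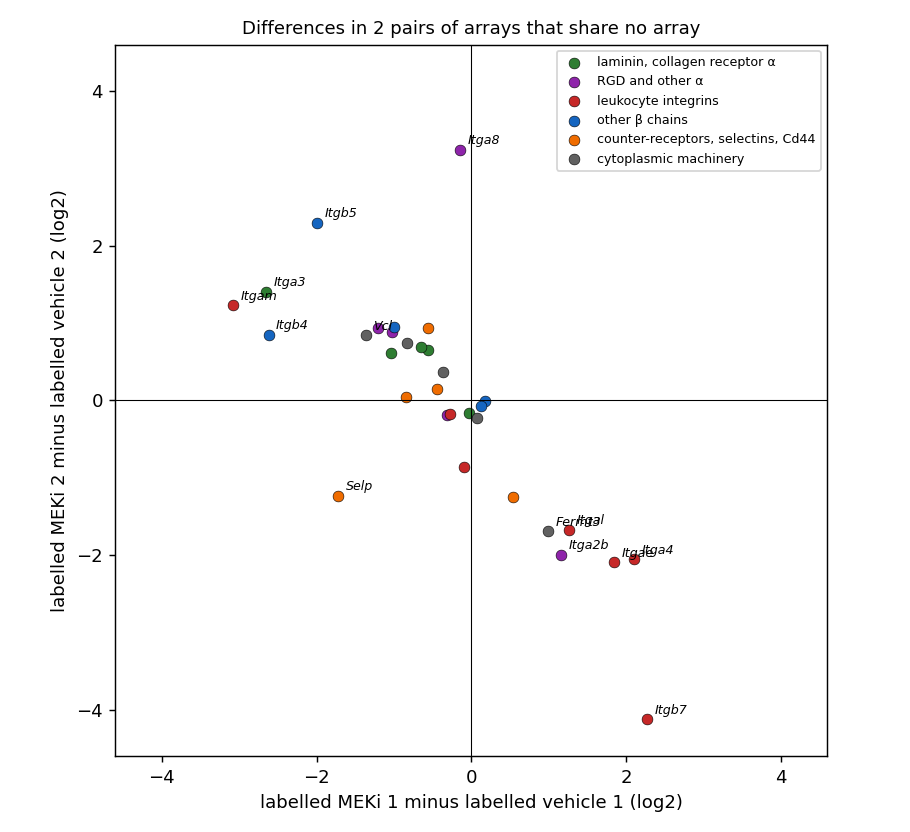
Log2 difference of the arrays labelled MEKi 1 and vehicle 1 (horizontal axis) against that of the arrays labelled MEKi 2 and vehicle 2 (vertical axis), 1 point for each of 32 adhesion genes, coloured by role. Most points lie at the upper left and lower right, from Itga3 (−2.65 and 1.41) to Itgb7 (2.27 and −4.12), while Selp lies in the lower left.

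Leukocyte integrin genes did not share a single order. Itgb7 encodes the β7 chain, which pairs with α4 to bind MAdCAM-1 and with αE to bind E-cadherin. It read 10.25 (MEKi 1) and 6.02 (MEKi 2) against 7.98 (vehicle 1) and 10.14 (vehicle 2). This range of 4.24 was the widest of the 32 genes, and the arrays of each label straddled those of the other. Itga4, the α4 chain carried by lymphocytes and monocytes, read 10.88 (MEKi 1) and 8.56 (MEKi 2) against 8.78 (vehicle 1) and 10.61 (vehicle 2). Itgae, the αE chain (CD103) of intraepithelial T cells and some dendritic cells, read 7.77 (MEKi 1) and 5.11 (MEKi 2) against 5.92 (vehicle 1) and 7.20 (vehicle 2). Itgal, the αL chain of LFA-1, the main ICAM-1 receptor of lymphocytes, read 10.93 (MEKi 1) and 9.17 (MEKi 2) against 9.66 (vehicle 1) and 10.84 (vehicle 2). MEKi 1 and vehicle 2 were the 2 highest arrays of these 4 genes under the deposited scaling and both centrings. Of the other two, MEKi 2 was the lower in the deposited scaling, whereas after centring on tumor epithelial genes vehicle 1 was the lower for Itga4, Itgae and Itgal.

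The β2 chain and its myeloid partners differed from that order. Itgam encodes αM, the CD11b chain of macrophages and neutrophils, and read 5.57 (MEKi 1) and 7.57 (MEKi 2) against 8.65 (vehicle 1) and 6.34 (vehicle 2). It was thus lowest where Itgal was highest, and its lowest and highest arrays were those of the macrophage list. The neutrophil list had medians of 7.46 (MEKi 1) and 6.66 (MEKi 2) against 6.17 (vehicle 1) and 6.68 (vehicle 2). By median this was the reverse of Itgam at both ends, but not by sum. Summed on the linear scale and taken as log2, the list read 11.90 (MEKi 1), 12.76 (MEKi 2), 11.69 (vehicle 1) and 10.89 (vehicle 2). Genes within the list differed, as 6 of the 9 were lower in MEKi 1 than in MEKi 2, like Itgam, and 3 were higher. The cell source of Itgam was not tested. Itgax, the CD11c chain of dendritic cells and macrophages, lies next to Itgam on chromosome 7 in GRCm38.p6 and read 8.67 (MEKi 1) and 8.49 (MEKi 2) against 8.94 (vehicle 1) and 8.66 (vehicle 2), a range of 0.46. Itgb2, the β2 chain that αL, αM and αX all need, read 11.38, 10.68, 11.47 and 11.54 in the same order, close together except in MEKi 2. By label limma gave −0.92 (SE 1.75) for Itgb7, −0.92 (SE 1.13) for Itgam and −0.48 (SE 0.30) for Itgb2, each with an adjusted p of 1. Without MEKi 1 the difference of Itgb7 was −3.04, and without MEKi 2 it was 1.20.

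**Figure D3:**
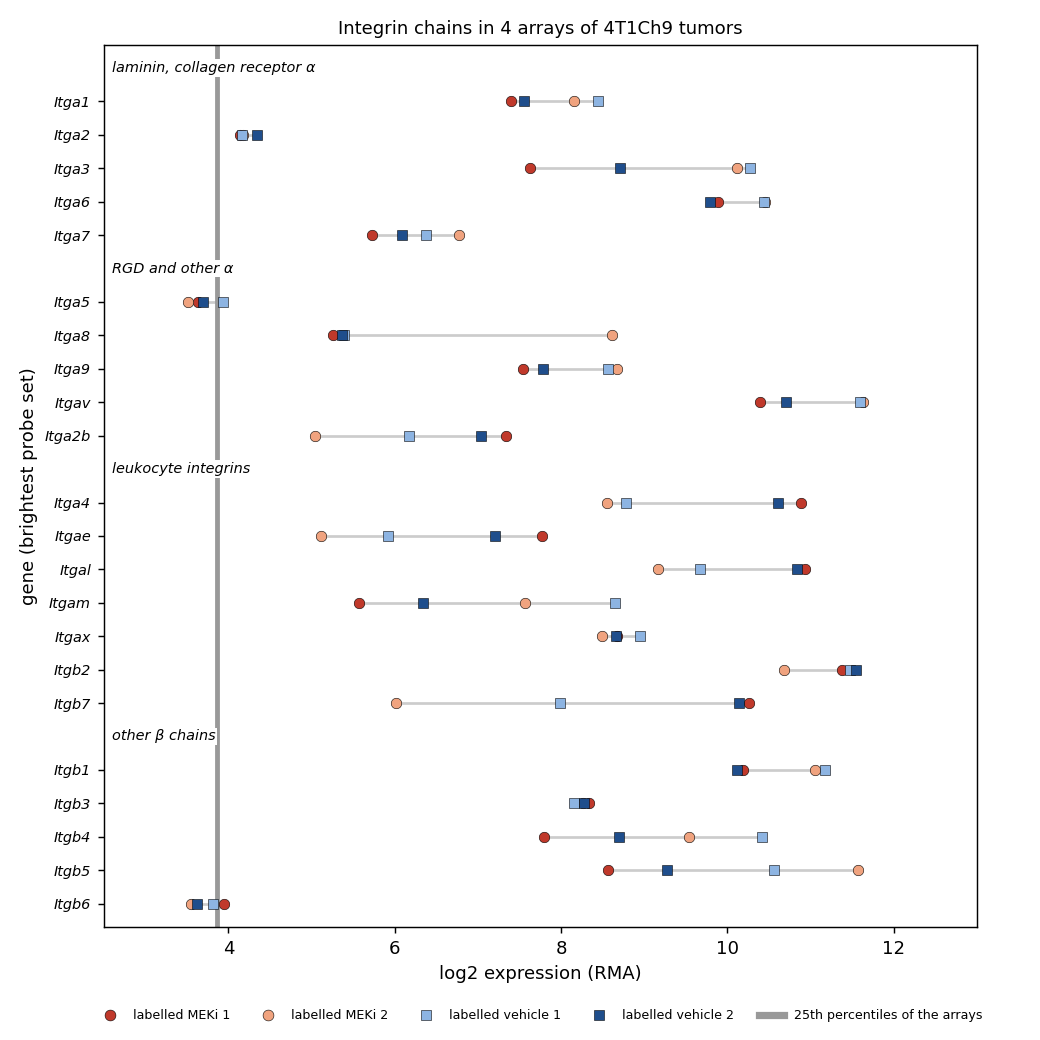
Log2 expression (RMA, horizontal axis) of 22 integrin chain genes grouped by role, 1 point an array (circles labelled MEKi, squares labelled vehicle). Itgb7 spans 6.02 (MEKi 2) to 10.25 (MEKi 1), and the grey band marks the 25th percentiles of the arrays.

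Receptors for laminin ran the other way. Itga3, whose α3β1 receptor binds laminin in epithelia, read 7.62 (MEKi 1) and 10.11 (MEKi 2) against 10.27 (vehicle 1) and 8.71 (vehicle 2). Its 2 further probe sets had the same 2 highest arrays. Itgb4, the partner of α6 in the hemidesmosomes of epithelial cells, read 7.80 (MEKi 1) and 9.54 (MEKi 2) against 10.41 (vehicle 1) and 8.69 (vehicle 2). Itga6 itself varied less, with 9.88 (MEKi 1) and 10.45 (MEKi 2) against 10.44 (vehicle 1) and 9.79 (vehicle 2). Itgb1, the partner of most matrix-binding α chains, read 10.18 (MEKi 1) and 11.05 (MEKi 2) against 11.18 (vehicle 1) and 10.11 (vehicle 2). In these 4 genes MEKi 2 and vehicle 1 held the 2 highest readings, although for Itga6 MEKi 2 and MEKi 1 did so after centring on tumor epithelial genes. Among the tumor epithelial genes, Krt8 read 10.54 (MEKi 1) and 12.11 (MEKi 2) against 12.92 (vehicle 1) and 11.75 (vehicle 2), while Epcam read 9.06, 6.54, 8.79 and 9.23.

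Itga1, a collagen receptor chain of stromal and some T cells, lay between 7.40 (MEKi 1) and 8.44 (vehicle 1), a range of 1.04. Itga7, a laminin receptor chain known from muscle, lay between 5.72 (MEKi 1) and 6.78 (MEKi 2), a range of 1.05. Skeletal muscle markers had array medians between 3.90 and 4.19, near the floor. By label Itga3 differed by −0.62 (SE 1.09) and Itgb4 by −0.88 (SE 0.91), with an adjusted p of 1 for both in limma. Itga3 turned to 0.62 when MEKi 1 was left out, whereas Itgb4 stayed below 0, between −1.76 and −0.01, whichever array was left out.

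The αv receptors followed the laminin receptors. Itgav, the α chain of the vitronectin receptors, read 10.39 (MEKi 1) and 11.63 (MEKi 2) against 11.60 (vehicle 1) and 10.70 (vehicle 2). Its partner Itgb5, the chain of the vitronectin receptor αvβ5, read 8.57 (MEKi 1) and 11.57 (MEKi 2) against 10.55 (vehicle 1) and 9.27 (vehicle 2). The order for Itgb5, highest in MEKi 2 and lowest in MEKi 1, was that of the ERK output medians. It was not particular to Itgb5, since Itgav, Itga7, Itga8, Itga9, Vcam1, Pxn and Ilk had it too in the deposited scaling. The share of all genes with this full order was not counted, but 30.0% had MEKi 2 and vehicle 1 highest. Centring on the reference genes made MEKi 2 and vehicle 2 the highest arrays of Itga8. After centring on tumor epithelial genes MEKi 1 and MEKi 2 were highest for Itga7, Itga8, Vcam1, Pxn and Ilk. A link to ERK output was not tested. By contrast Itgb3, the β3 chain of platelets, osteoclasts and sprouting vessels, read 8.34, 8.27, 8.15 and 8.28, a range of 0.18. Itga9, which with β1 binds tenascin and VCAM-1, lay between 7.54 (MEKi 1) and 8.67 (MEKi 2).

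In the deposited scaling Itga8 had the order of Itgav and Itgb5, but only its MEKi 2 reading stood apart, whereas Itga2b had the order of the lymphoid integrins. Itga8, whose α8β1 receptor binds nephronectin and is carried by smooth muscle and other mesenchymal cells, read 8.61 in MEKi 2 but 5.25 in MEKi 1, 5.39 in vehicle 1 and 5.37 in vehicle 2. Its further probe set read 5.87 in MEKi 2 and between 3.76 and 3.91 in the other arrays. The mesenchymal marker Pdgfrb also stood highest in MEKi 2, at 9.82, with the other readings between 6.94 and 7.38. The fibroblast and myofibroblast list as a whole (9 of 10 measured) was lowest there, with medians of 9.06 (MEKi 1) and 8.43 (MEKi 2) against 10.09 (vehicle 1) and 9.55 (vehicle 2), and Col1a2 was at the floor in MEKi 2. By label Itga8 differed by 1.55 (SE 1.24, adjusted p = 1 in limma), the highest estimate of the 32 genes, and by −0.13 without MEKi 2. Itga2b, the αIIb chain of platelets and megakaryocytes, read 7.34 (MEKi 1) and 5.04 (MEKi 2) against 6.18 (vehicle 1) and 7.03 (vehicle 2). The 8 of 9 measured platelet and megakaryocyte genes, Itga2b among them, had medians of 4.85, 4.40, 4.24 and 4.26, so the list did not share that order. Its members Gp1bb and Gp6 both lay at or below the 25th percentile in vehicle 2, and Gp1bb also in vehicle 1. Pf4, by contrast, was bright on all arrays, with 9.59 (MEKi 1) and 9.41 (MEKi 2) against 10.72 (vehicle 1) and 9.80 (vehicle 2). Ppbp read 6.71 in MEKi 1 and between 3.83 and 4.13 in the other arrays.

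Counter-receptors on vessel walls did not share an order either. Icam1, the ligand of LFA-1, read 10.00 (MEKi 1) and 8.70 (MEKi 2) against 9.46 (vehicle 1) and 9.96 (vehicle 2), the same order as Itgal, although after centring on tumor epithelial genes MEKi 1 and MEKi 2 were its 2 highest arrays. Vcam1, the ligand of α4β1, had the reverse order of Itga4, with 7.96 (MEKi 1) and 9.26 (MEKi 2) against 8.52 (vehicle 1) and 8.32 (vehicle 2). Selp, the P-selectin gene of platelets and activated endothelium, read 8.41 (MEKi 1) and 7.52 (MEKi 2) against 10.12 (vehicle 1) and 8.75 (vehicle 2). Both arrays labelled MEKi lay below both labelled vehicle for Selp, also in its further probe set, and the difference by label was −1.47 (SE 0.62, adjusted p = 1 in limma). It kept its sign in every fit without 1 array, between −2.16 and −0.79. After centring on tumor epithelial genes the difference was −0.35, and Selp was the 1 gene of the 32 that stayed below 0. Its 2 highest arrays were then MEKi 1 and vehicle 1, so its labels overlapped under that centring. Blood endothelial genes (10 of 10 measured) had medians of 7.95 (MEKi 1) and 8.47 (MEKi 2) against 8.45 (vehicle 1) and 8.14 (vehicle 2), with the arrays of 1 label on both sides of the other. Cd44, the hyaluronan receptor of tumor cells and activated lymphocytes, read 10.52, 10.99, 11.37 and 10.95, a range of 0.85.

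**Figure D4:**
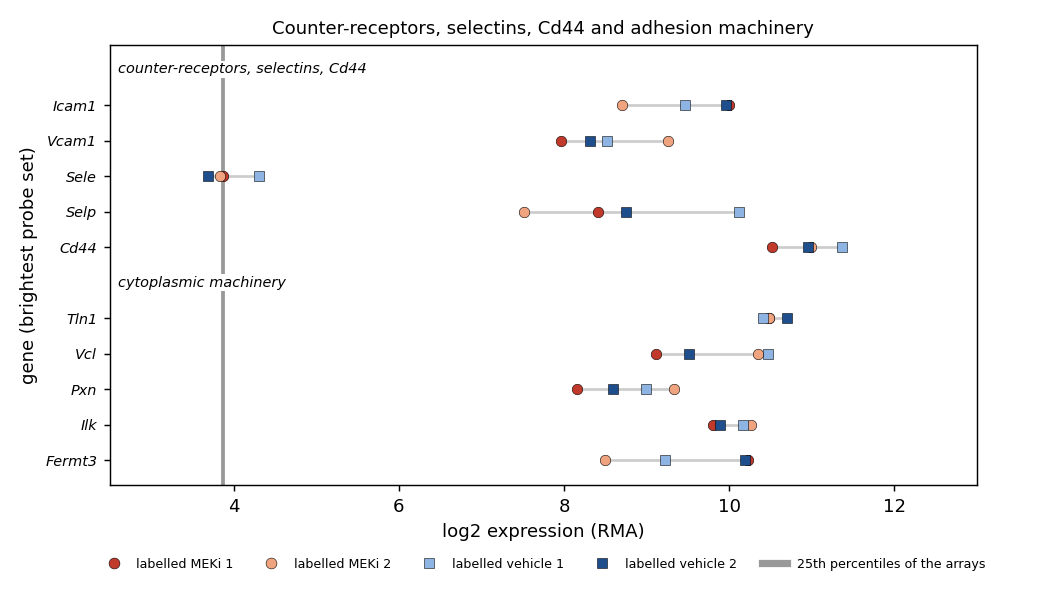
Log2 expression (RMA, horizontal axis) of counter-receptors, selectins, Cd44 and 5 cytoplasmic adhesion genes, 1 point an array (circles labelled MEKi, squares labelled vehicle). Selp runs from 7.52 in MEKi 2 to 10.12 in vehicle 1, and Tln1 stays between 10.40 and 10.71.

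Of the 5 cytoplasmic members, Tln1 and Ilk had the smallest ranges in the probe set used. Tln1 encodes talin-1, which binds β chain tails and switches integrins on, and read 10.48 (MEKi 1) and 10.49 (MEKi 2) against 10.40 (vehicle 1) and 10.71 (vehicle 2). Its further probe set varied more, from 5.77 (MEKi 2) to 6.72 (vehicle 2). Ilk, a pseudokinase scaffold at focal adhesions, lay between 9.80 (MEKi 1) and 10.26 (MEKi 2). Vcl, the actin-linking protein vinculin, had a wider range, with 9.11 (MEKi 1) and 10.35 (MEKi 2) against 10.47 (vehicle 1) and 9.51 (vehicle 2). Pxn, the focal adhesion adaptor paxillin, read 8.15 (MEKi 1) and 9.33 (MEKi 2) against 8.99 (vehicle 1) and 8.59 (vehicle 2). Fermt3, the kindlin of blood cells, had the order of the lymphoid integrins, with 10.22 (MEKi 1) and 8.50 (MEKi 2) against 9.23 (vehicle 1) and 10.19 (vehicle 2). After centring on tumor epithelial genes Vcl and Fermt3 kept their 2 highest arrays, while for Tln1, Ilk, Pxn and, among the counter-receptors, Vcam1 these became MEKi 1 and MEKi 2. By label the 5 genes differed by between −0.35 (Fermt3, SE 0.74) and 0.00 (Ilk, SE 0.25), with an adjusted p of 1 in limma.

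Bases before an annotated transcript start are shown for 4 genes, to set next to each other a pair that was highest in MEKi 1 and vehicle 2 (Itga4 and Fermt3) and a pair that was highest in MEKi 2 and vehicle 1 (Itga3 and Vcl). They were chosen after their values were seen, are RefSeq sequence of build GRCm38.p6, and run 5′ to 3′ over 250 bases on the strand of the gene. The windows lie at chr2:79255176-79255425 (+) for Itga4, chr19:7019470-7019719 (−) for Fermt3, chr11:95076715-95076964 (−) for Itga3 and chr14:20929148-20929397 (+) for Vcl. The RefSeq gene record of Itga3 begins further upstream, so 130 of its 250 bases, the marked match included, lie inside that record, as do the last 15 of Vcl. Capitals mark a match on either strand to the RUNX motif (Itga4, Fermt3), to the ETS motif (Itga3) or to the CArG box of serum response factor (Vcl).
Itga4: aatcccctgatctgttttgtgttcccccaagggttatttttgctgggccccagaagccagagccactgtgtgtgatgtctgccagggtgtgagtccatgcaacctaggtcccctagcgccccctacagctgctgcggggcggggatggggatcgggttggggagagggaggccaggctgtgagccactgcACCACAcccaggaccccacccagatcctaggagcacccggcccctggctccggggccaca
Fermt3: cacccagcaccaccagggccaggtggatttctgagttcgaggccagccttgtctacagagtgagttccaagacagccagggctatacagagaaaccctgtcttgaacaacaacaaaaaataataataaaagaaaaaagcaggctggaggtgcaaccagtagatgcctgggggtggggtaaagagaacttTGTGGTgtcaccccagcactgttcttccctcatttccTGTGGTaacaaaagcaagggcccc
Itga3: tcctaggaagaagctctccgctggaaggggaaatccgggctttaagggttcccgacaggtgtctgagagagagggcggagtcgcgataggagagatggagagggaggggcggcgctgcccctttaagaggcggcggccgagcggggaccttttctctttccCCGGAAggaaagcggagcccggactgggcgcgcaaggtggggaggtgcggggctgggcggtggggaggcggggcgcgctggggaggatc
Vcl: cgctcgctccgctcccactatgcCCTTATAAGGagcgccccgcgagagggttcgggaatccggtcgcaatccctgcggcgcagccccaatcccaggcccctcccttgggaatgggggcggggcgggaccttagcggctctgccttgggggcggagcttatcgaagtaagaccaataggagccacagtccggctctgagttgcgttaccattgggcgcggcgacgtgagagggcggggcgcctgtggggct
Windows were held for 25 of the 35 listed genes, 28 windows in all, since Itga3, Itgb6 and Ilk have 2 each. The RUNX motif TGTGGT was found in 5 of the 28 windows (14.0% of all 32851 windows), before Fermt3, Ilk, Itga3 and Itga4, and for Itga3 in the window not shown. Counting a gene with a match in any window, it was present in 2 of the 5 genes with a window that were highest in MEKi 1 and vehicle 2 and in 2 of the 11 that were highest in MEKi 2 and vehicle 1. The ETS motif CCGGAA was found in 4 of the 28 windows (12.0% of all windows), the PU.1 motif GAGGAA in 11 (23.3%), the AP-1 motif TGANTCA in 3 (6.75%) and the CArG box in 2 (1.47%). The AP-1 matches lay before Itgax, Sele and Selp. In the same split of 5 and 11 genes, the PU.1 motif was present in 1 and 5 and the ETS motif in 1 and 2. The AP-1 motif was present in 0 and 0 of them and the CArG box in 0 and 1. Motifs were searched on both strands, GAGGAA and CCGGAA may share bases in a window, and a match describes letters only.

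Further genes of the adhesion pathway were compared in the same way. Of 85 listed genes 71 were measured and 0 were called by label with limma, with 1 at an unadjusted p under 0.05 (Plec, which encodes plectin, at −0.78, SE 0.27, adjusted p = 1). The median by label was −0.09. Both arrays labelled MEKi lay above both labelled vehicle in 0 of the 71 genes (11.0% of all genes) and below them in 7 (10.2%). The 2 highest readings were those of MEKi 1 and vehicle 2 in 31 of the 71 genes (29.5% of all genes) and those of MEKi 2 and vehicle 1 in 28 (30.0%).

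Kinases and small GTPases that switch integrins on from inside were mostly highest in MEKi 1 and vehicle 2, in 15 of 19 genes (29.5% of all genes). Rasgrp2 encodes an activator of Rap1, the GTPase above talin and kindlin-3 in blood cells, and read 9.38 (MEKi 1) and 4.78 (MEKi 2) against 5.59 (vehicle 1) and 9.10 (vehicle 2). Skap1, an adaptor of T cells in the LFA-1 pathway, read 10.05 in MEKi 1 and 10.08 in vehicle 2 but 5.12 in vehicle 1, with MEKi 2 just below that. Ptk2b, the FAK relative Pyk2, read 10.10 (MEKi 1) and 7.04 (MEKi 2) against 7.68 (vehicle 1) and 10.17 (vehicle 2). Rac2, the Rac GTPase of blood cells, had the same 2 highest arrays, with 11.94 in MEKi 1 and 9.15 in MEKi 2.

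Focal adhesion adaptors mostly had the opposite order, with MEKi 2 and vehicle 1 highest in 16 of 27 genes (30.0% of all genes). Relatives within a family parted. Fermt2, the kindlin of epithelial and mesenchymal cells, read 8.27 (MEKi 1) and 10.62 (MEKi 2) against 10.28 (vehicle 1) and 8.80 (vehicle 2), the reverse of Fermt3 at both ends. Parva, α-parvin, read 5.82 (MEKi 1) and 8.59 (MEKi 2) against 7.94 (vehicle 1) and 6.64 (vehicle 2). Its blood cell relative Parvg read 9.07 (MEKi 1) and 6.29 (MEKi 2) against 5.91 (vehicle 1) and 9.13 (vehicle 2). The differences between relatives were not tested. Tns4, a tensin that binds β chain tails in epithelial cells, ranged from 8.60 in MEKi 1 to 11.15 in vehicle 1.

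Among other partners, Selplg, the P-selectin ligand PSGL-1 of leukocytes, read 10.40 (MEKi 1) and 7.62 (MEKi 2) against 8.55 (vehicle 1) and 10.44 (vehicle 2). Madcam1, the vessel ligand of α4β7, read 6.11 in MEKi 1 and 7.03 in vehicle 2 and lay at or below the 25th percentile in the other two. Vtn, which encodes the αv ligand vitronectin, read 8.17 (MEKi 1) and 4.15 (MEKi 2) against 4.11 (vehicle 1) and 7.70 (vehicle 2), high in the arrays where Itgav and Itgb5 were low. Alcam, the CD6 ligand on antigen-presenting and epithelial cells, lay between 5.92 (MEKi 2) and 8.33 (MEKi 1).

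**Figure D5:**
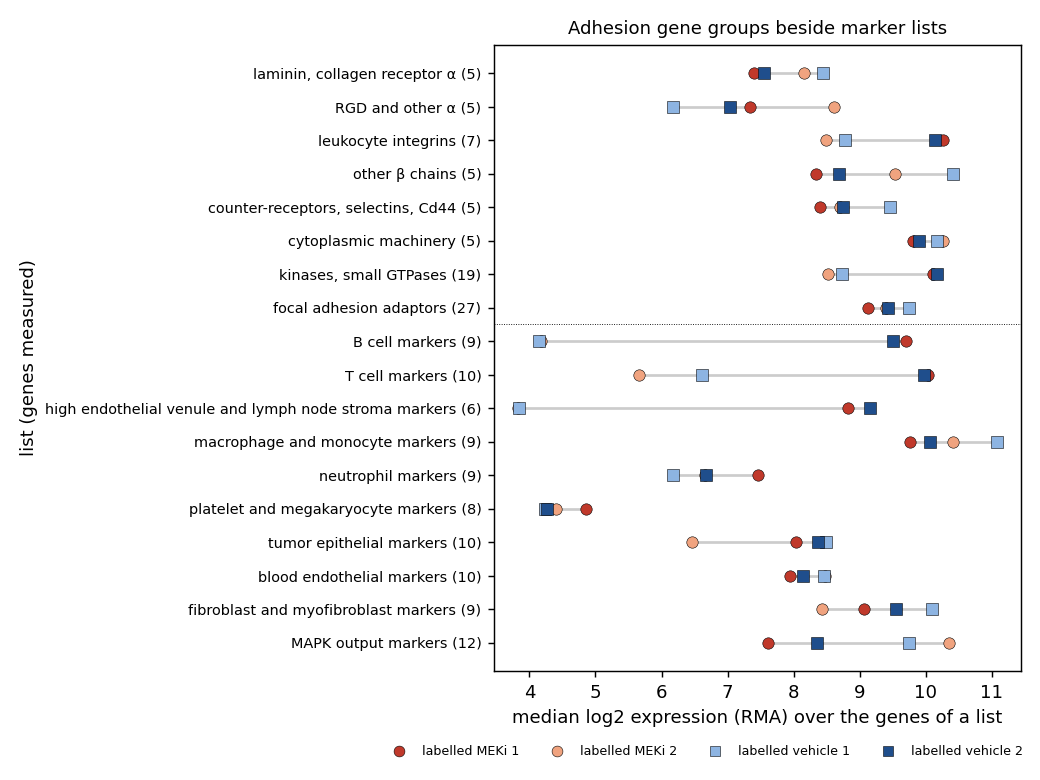
Median log2 expression (RMA, horizontal axis) of adhesion gene groups (above the dotted line) and marker lists (below it) by array (circles labelled MEKi, squares labelled vehicle), with each list's measured gene number in parentheses. Leukocyte integrins have medians of 10.25 (MEKi 1), 8.49 (MEKi 2), 8.78 (vehicle 1) and 10.14 (vehicle 2), and T and B cell markers are higher in MEKi 1 and vehicle 2 too.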

How the data were processed

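Total RNA of 4T1Ch9 tumors was measured on 4 Affymetrix MG-430PM arrays, 2 labelled MEKi and 2 labelled vehicle. The authors deposited log2 expression values for 45141 probe sets obtained by RMA (AFFY package), which corrects background, applies quantile normalization across arrays and summarises probes. No filter on probe sets is stated in the sources used here. After 104 control probe sets were left out, 45037 were fitted by label in R 4.3.3 using limma 3.58.1 (lmFit, then eBayes; two-sided; Benjamini-Hochberg adjustment over all of them). Called probe sets had an adjusted p under 0.1, an unadjusted p under 0.05 and over 1.5-fold change. The platform annotation gives 1 symbol to 28898 probe sets and several to 551, and 15588 remain unnamed here. By Entrez identifier 28689 were matched to RefSeq, and 0 symbols changed. Quantile normalization fixes the overall distribution of each array, so a gain in some genes lowers the place of others.

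Groups came from the sample labels. The adhesion genes, lists and tests were chosen with earlier results of these data known. Named were all adhesion genes measured and, as no gene was called, up to 4 genes with the widest range in each pathway list. Plec and Tns1 were named as well, after their p-values were seen. The fit was tested on simulated data. Alternatives changed the threshold, variance model, dim probe set filter, centring, pairing, arrays and choice of probe set. Python 3.11.15, numpy 2.4.6, pandas 2.3.3 and matplotlib 3.10.9 were used for tables and figures.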

Additional observations from a re-analysis of the deposited data

How the results depend on the processing

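No adhesion gene, and none of the 71 further pathway genes, was called by limma under the fixed alternatives, which changed the adjusted p limit, the variance model, the dim probe set filter, the centring, the pairing, the arrays used and the choice of probe set. Over all probe sets the count was 22 after centring on tumor epithelial genes and 0 in the others. This centring moved all genes by 1.12, gave the adhesion genes a median of 0.98 beside 1.13 over all genes, and raised the count of genes with non-overlapping labels from 3 to 16. Under it the differences by label turned from negative to 0.72 for Cd44, 0.78 for Fermt3, 0.77 for Icam1, 0.91 for Itga1, 1.03 for Itga2, 0.71 for Itga2b, 0.50 for Itga3, 0.88 for Itga5, 1.06 for Itga9, 1.00 for Itgae, 0.92 for Itgal, 0.20 for Itgam, 0.99 for Itgav, 0.90 for Itgax, 1.10 for Itgb1, 0.64 for Itgb2, 0.24 for Itgb4, 0.20 for Itgb7, 1.08 for Pxn, 0.98 for Sele, 1.05 for Tln1 and 0.87 for Vcl. When all probe sets of a gene were averaged they turned to −0.072 for Itga4, −0.056 for Itgb6 and 0.031 for Pxn. Leaving out 1 array in turn, the median of the adhesion genes ran from −0.26 to 0.075 and the count of non-overlapping genes from 8 to 27. In the same fits the difference by label changed sign for most genes and ran from −1.21 to 0.52 for Fermt3, −1.01 to 0.29 for Icam1, −0.23 to 0.23 for Ilk, −0.66 to 0.23 for Itga1, −1.57 to 0.73 for Itga2b, −1.87 to 0.62 for Itga3, −1.14 to 1.19 for Itga4, −0.28 to 0.37 for Itga6, −0.51 to 0.54 for Itga7, −0.13 to 3.23 for Itga8, −0.63 to 0.50 for Itga9, −1.45 to 1.21 for Itgae, −1.08 to 0.68 for Itgal, −2.08 to 0.23 for Itgam, −0.75 to 0.48 for Itgav, −0.56 to 0.51 for Itgb1, −1.35 to 1.66 for Itgb5, −0.17 to 0.22 for Itgb6, −3.04 to 1.20 for Itgb7, −0.63 to 0.55 for Pxn, −0.46 to 0.17 for Sele, −0.22 to 0.079 for Tln1, −0.45 to 0.84 for Vcam1 and −0.88 to 0.37 for Vcl. The cause was not tested, other than that fewer arrays make a gap between labels easier to meet. It is not stated in the sources used here if arrays with the same number form a pair. The deviations from the group means of MEKi 1 and vehicle 1 correlated at −0.76 across probe sets. With 2 arrays a label this is a single value, the same for MEKi 2 and vehicle 2. It shows that the gaps within the labels ran in opposite directions, and it cannot decide if the numbers mark pairs. The replicate number as a block gave 0 calls over all probe sets, 0 of the adhesion genes and 0 of the pathway genes. A crossed pairing, added after the data were seen, also gave 0, 0 and 0. Low signal over background limits what can be said of Itga2, Itga5, Itgb6 and Sele.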

Other observations

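Tetraspanins, membrane proteins that gather integrins into clusters, also parted by array. Of 8 listed genes 7 were measured and 0 were called by label with limma. Cd37, a tetraspanin of B cells and other leukocytes, read 10.60 (MEKi 1) and 4.99 (MEKi 2) against 6.39 (vehicle 1) and 10.38 (vehicle 2). Tspan32 read 9.13 in both MEKi 1 and vehicle 2, and 4.80 and 4.99 in MEKi 2 and vehicle 1. Cd53, which leukocytes in general carry, differed less, from 11.02 in MEKi 2 to 12.81 in MEKi 1. Cd9, which is abundant in epithelial cells and platelets, had its highest readings in the other arrays, with 10.72 (MEKi 1) and 12.15 (MEKi 2) against 12.46 (vehicle 1) and 11.22 (vehicle 2).

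Of the further integrin genes measured, Itga10 lay between 6.01 (vehicle 2) and 6.83 (MEKi 2), Itgb2l between 4.51 and 4.81, and Itgbl1 between 3.79 (MEKi 2) and 5.46 (vehicle 1). For the adhesion genes with several probe sets, 23 further probe sets read above the 25th percentile on all arrays, and 19 of them had the same 2 highest arrays as the probe set used. The exceptions belonged to Itgav, Itgb3 and Tln1.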
